A study of Mus musculus with 16 samples.

Results

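The matrix metalloproteinases (Mmp), the transmembrane ADAM proteases, the secreted ADAMTS proteases with their ADAMTS-like relatives, and the tissue inhibitors of metalloproteinases (Timp) were followed in white fat of mice. Members were the genes named Mmp, Adam, Adamts, Adamtsl or Timp followed by a digit that reached 1 FPKM (fragments mapped, scaled by transcript length and library total) in at least 2 of the 16 libraries. Mmp12 and Adam8 were set aside by the rule. The rule took 46 of the 14023 genes in the table. They were 13 ADAM genes, 5 ADAMTS hyalectanases, 2 procollagen N-propeptidases, 5 other ADAMTS genes, 5 ADAMTS-like genes, 4 membrane-bound and 8 secreted MMPs and the 4 Timps. Adam1a was the only named gene that missed the threshold, with 1 library at 1 FPKM or more and a highest value of 1.1 FPKM. Adam2, Adam3, Adam7 and Adamts6 lay just inside it, with 2 libraries each.

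Mice carried 2 copies of PPARg-K107R, a change of the SUMO-acceptor lysine of PPARg to arginine, or the wild-type protein (WT). All were kept on chow for 10 weeks and then for 19 weeks on food that drew 60% of its calories from fat. For 1 week they received by gavage either rosiglitazone, an agonist of PPARg, at 10 mg/kg in 1% methylcellulose, or the 1% methylcellulose alone (vehicle). Epididymal fat (eWAT) and inguinal fat (iWAT) were sampled, which gave K107R rosiglitazone, K107R vehicle, WT rosiglitazone and WT vehicle groups in each depot, 8 groups of 2 libraries, numbered 1 and 2. Strain, sex and age are not stated in the labels. All animals were fat-fed, so no group shows the lean state, and RNA came from whole depots with all their cell types. Whether the 2 libraries of a group came from separate mice is not in the labels; the p-values rest on the spread between these libraries, part or all of which may be technical.

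Mmps and ADAMTS proteases cut the matrix around fat cells, which must be remodelled when fat cells enlarge and when blood vessels and macrophages enter a growing depot. Most are made as inactive precursors, and the Timps block the active enzymes by filling the catalytic site. ADAMs mainly shed the outer parts of membrane proteins such as growth factors and cytokines, and the ADAMTS-like proteins lack the protease domain. The membrane-bound Mmp14 collagenase activates pro-Mmp2 together with Timp2 and is needed for fat cells to grow in the collagen matrix of white fat.

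Levels differed widely between members, per length of transcript. Timp2 had the highest mean over the 16 libraries, at 214.8 FPKM, followed by the gelatinase Mmp2 at 120.7 FPKM and Adam15 at 119.1 FPKM. Mmp14 had the highest mean of the membrane-bound MMPs, 74.71 FPKM. The highest mean was 25.05 FPKM among the N-propeptidases (Adamts2), 22.64 FPKM among the hyalectanases (Adamts5), 16.97 FPKM among other ADAMTS genes (Adamts10) and 11.24 FPKM among ADAMTS-like genes (Adamtsl5). No read counts come with FPKM, so the depth of the libraries is unknown; their summed FPKM ranged from 411746 to 596519. Same-numbered libraries deviated together from their group means, and 15 members, among them Timp3, Adam10 and Adamts5, were lower in all 8 number 2 libraries than in the number 1 library of the same group. Counts of members called in a fit with the replicate number as a block are therefore given beside the main counts. Block values are given for some of the genes whose calls it changes, and the others are only counted. A gene given without a block value may still be called with the block. The 2 eWAT K107R vehicle libraries stood apart through epididymal markers, which summed to 3140 to 3410 FPKM there and to at most 5.262 FPKM in the other 14 libraries. Every contrast that uses this group carries that difference, and leaving out 1 library does not remove it. The defining adipocyte marker Fabp4 was listed at 0 in eWAT K107R rosiglitazone and in all iWAT libraries, and Lpl in the iWAT rosiglitazone groups, although the other adipocyte markers were present.

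Mmp3 (stromelysin-1) and Mmp13 (collagenase-3) lie in the Mmp cluster on chromosome 9, and the promoters of collagenase and stromelysin genes are textbook targets of the AP-1 factors. Their sequences are shown as 2 of the 3 members whose windows held the AP-1 letters marked below, so they do not stand for the other members. Mmp3 fell with rosiglitazone in iWAT. Mmp13 separated the depots, but it had reached 1 FPKM in eWAT alone, an entry that favours such a difference. Mmp14, Timp1 and Timp2 also separated the depots, and their windows held no such letters. A link between the letters and these differences was not tested. The windows cover the 250 bases before the annotated start, from RefSeq (GRCm38.p6), on the plus strand, at chr9:7445572-7445821 for Mmp3 and chr9:7272264-7272513 for Mmp13. Capitals mark the AP-1 letters TGANTCA, a palindrome that reads alike on both strands.
Mmp3: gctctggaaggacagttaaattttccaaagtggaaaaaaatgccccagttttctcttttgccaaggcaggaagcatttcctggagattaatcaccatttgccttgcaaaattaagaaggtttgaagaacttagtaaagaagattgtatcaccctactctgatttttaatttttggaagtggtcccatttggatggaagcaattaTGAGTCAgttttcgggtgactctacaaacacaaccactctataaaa
Mmp13: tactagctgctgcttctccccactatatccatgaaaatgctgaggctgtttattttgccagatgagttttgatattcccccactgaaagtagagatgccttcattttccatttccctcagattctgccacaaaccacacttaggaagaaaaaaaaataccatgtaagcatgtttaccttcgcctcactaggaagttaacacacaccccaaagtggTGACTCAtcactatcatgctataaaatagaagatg
The motif began 46 bases before the start of Mmp3 and 35 bases before that of Mmp13. Of the 46 members, 28 were in the promoter table. TGANTCA was found in 3 of the 28 (10.7%), Adam19, Mmp13 and Mmp3, against 7.82% of the 27025 genes in the table. The PPAR direct repeat AGGNCANAGGNCA, searched on both strands, was in 0 of the 28 windows and in 0.4% of genes. A match describes letters and not a bound site.

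The depots differed in many members. Timp1, Timp2, Mmp14, Mmp11 and Mmp19 were higher in eWAT, and Timp4, Mmp3, Mmp15 and Adamtsl4 were lower in eWAT than in iWAT. In limma on log2(FPKM + 1), with each depot averaged over its 4 groups and p adjusted by Benjamini-Hochberg over 13669 genes, 18 of 46 members were higher in eWAT and 11 lower at an adjusted p under 0.05. Of all genes tested, 32.4% were called, 19.9% higher and 12.5% lower. The median log2 difference was 0.20 over members and 0.10 over all genes. Some members had reached 1 FPKM in 1 depot alone, an entry that favours a difference between depots. Without those 6 genes, 16 of 40 were higher and 7 lower (57.5% called). With the replicate block the count over all members was 23 higher and 12 lower, against 55.8% of all genes.

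Of the inhibitors, Timp1, the inducible Timp that also acts as a growth factor, differed most. Timp1 ranged from 37.57 to 58.48 FPKM in eWAT (median 52.61) and from 3.518 to 8.167 FPKM in iWAT (median 6.35). The libraries of the 2 depots did not overlap, and the log2 difference was 2.86 ± 0.07 (SE; limma adjusted p = 1.22e-09). Timp2 ranged from 213.2 to 367.4 FPKM in eWAT (median 281.4) and from 103.7 to 192.2 FPKM in iWAT (median 133.6), a log2 difference of 1.02 ± 0.16 (limma adjusted p = 0.000499). Again no library of one depot reached into the other. Timp4, the Timp typical of heart and fat, ran the other way, with 13.95 to 63.64 FPKM in eWAT (median 45.2) and 32.1 to 89.89 FPKM in iWAT (median 70.89). Its log2 difference was -0.64 ± 0.11 (limma adjusted p = 0.00114), with overlapping libraries. Timp3, which binds to the matrix, ranged from 17.2 to 110.3 FPKM in eWAT and from 29.96 to 166.9 FPKM in iWAT, and neither fit called it. Timp1 and Timp3 lie within Syn1 and Syn3 on the opposite strand. The span of Timp2 overlaps that of Cep295nl by 10141 bases on the same strand. These overlaps are of whole gene spans, introns included, and whether reads are shared was not tested.

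**Figure D1:**
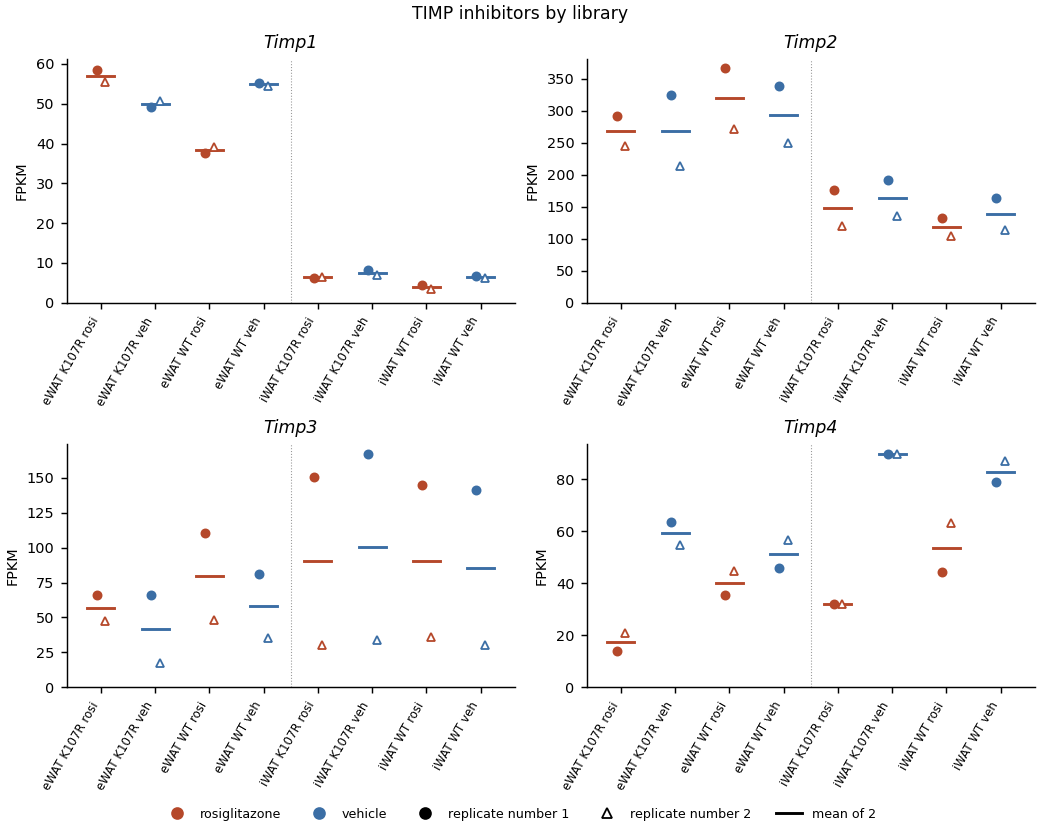
FPKM of the 4 Timp genes in each of the 16 libraries (y axis, from 0), with eWAT groups left of the dotted line and iWAT groups right of it; circles are number 1 and open triangles number 2 libraries, red is rosiglitazone, blue is vehicle and bars are means of 2. Timp1 lies at 37.57 FPKM or more in every eWAT library and at 8.167 FPKM or less in every iWAT library, and Timp3 separates number 1 from number 2 libraries in all groups.

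Among membrane-bound MMPs, Mmp14 (chr14:54431612-54445364, GRCm38) ranged from 84.27 to 117.2 FPKM in eWAT (median 106.0) and from 31.78 to 62.65 FPKM in iWAT (median 47.89). The depots did not overlap, and the log2 difference was 1.15 ± 0.05 (limma adjusted p = 7.34e-08). Mmp23 was also higher in eWAT in every library, at 23.05 to 42.66 FPKM against 10.75 to 18.39 FPKM in iWAT. Mmp15 was lower, at 3.319 to 5.215 FPKM in eWAT and 4.814 to 8.471 FPKM in iWAT (log2 -0.50, limma adjusted p = 0.000684). Of the secreted MMPs, 5 of 8 were higher and 3 lower, where 19.9% of all genes were higher and 12.5% lower. Among the higher ones, Mmp13 had reached 1 FPKM in eWAT alone. Among the lower ones, Mmp28 was not called with each library rescaled by its median ratio. Mmp11 (stromelysin-3, chiefly active on non-collagen substrates) stood at 29.67 to 52.26 FPKM in eWAT and 10.74 to 18.3 FPKM in iWAT, without overlap. Mmp19 had the largest secreted-MMP difference, 1.69 ± 0.28 (limma adjusted p = 0.00091), with 23.41 to 67.06 FPKM in eWAT and 8.444 to 26.04 FPKM in iWAT. Those ranges overlapped. Mmp2 was higher by 0.59 (limma adjusted p = 0.0026), but not with each library rescaled by its median ratio (0.44, limma adjusted p = 0.208).

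Both procollagen N-propeptidases, which trim fibrillar procollagens, were higher in eWAT. Adamts14 ranged from 3.778 to 5.788 FPKM in eWAT and from 1.738 to 2.225 FPKM in iWAT, without overlap. Adamts2 ranged from 22.39 to 37.1 FPKM in eWAT and from 14.14 to 27.65 FPKM in iWAT. Of the hyalectanases, which cut versican and related proteoglycans, Adamts15 was separated, at 9.74 to 12.87 FPKM in eWAT and 3.962 to 5.162 FPKM in iWAT. Of the ADAMTS-like genes, Adamtsl5 was higher in every eWAT library (13.44 to 18.14 FPKM, against 4.803 to 7.882 FPKM in iWAT), while Adamtsl4, a microfibril-binding protein, was lower in every one (4.779 to 7.067 FPKM, against 7.484 to 12.1 FPKM in iWAT; log2 -0.66 ± 0.07, limma adjusted p = 5.88e-05). In the ADAM class 3 of 13 were higher (Adam7, Adam15 and Adam19) and 4 lower (Adam2, Adam3, Adam11 and Adam33), against 19.9% and 12.5% of all genes. Of these, Adam2, Adam3, Adam7 and Adam11 had reached 1 FPKM in 1 depot alone, so their calls describe the filter as well as the tissue. Adam17, the TNF-alpha sheddase, was not called at a log2 difference of 1.14 (limma adjusted p = 0.0549) and passed with the block (0.000652) and after rescaling (1.03, limma adjusted p = 0.0117), with 6.398 to 23.29 FPKM in eWAT and 2.982 to 12.99 FPKM in iWAT. Adam15 was higher by 0.26 (limma adjusted p = 0.0197) but was not called after rescaling (0.11), without eWAT WT rosiglitazone number 2 (adjusted p = 0.0527) or without the K107R vehicle groups (adjusted p = 0.0708).

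Other calls between depots were smaller or lay at low levels. Adam19 had 8.445 to 12.4 FPKM in eWAT and 4.126 to 10.67 FPKM in iWAT (log2 0.51, limma adjusted p = 0.0173). Adamts4, a hyalectanase, had 1.069 to 2.566 FPKM in eWAT and 0.5235 to 2.103 FPKM in iWAT, Adamtsl3 had 0.6585 to 2.126 FPKM in eWAT and 0.2499 to 1.365 FPKM in iWAT, and Mmp27 had 0.8001 to 1.652 FPKM in eWAT and 0.3721 to 1.053 FPKM in iWAT. These 3 ranges overlapped, and each of the 3 calls was lost in 11 of 16 single omissions.

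Over all members, 9 were higher and 2 lower in eWAT with no overlap between depots, against 8.24% and 2.59% of all genes. The 9 were Adamts14, Adamts15, Adamtsl5, Mmp11, Mmp13, Mmp14, Mmp23, Timp1 and Timp2, and the 2 were Adam3 and Adamtsl4. Mmp13 and Adam3 had reached 1 FPKM in 1 depot alone. Mmp13 stood at 0.7649 to 2.128 FPKM in eWAT and 0.04191 to 0.491 FPKM in iWAT.

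**Figure D2:**
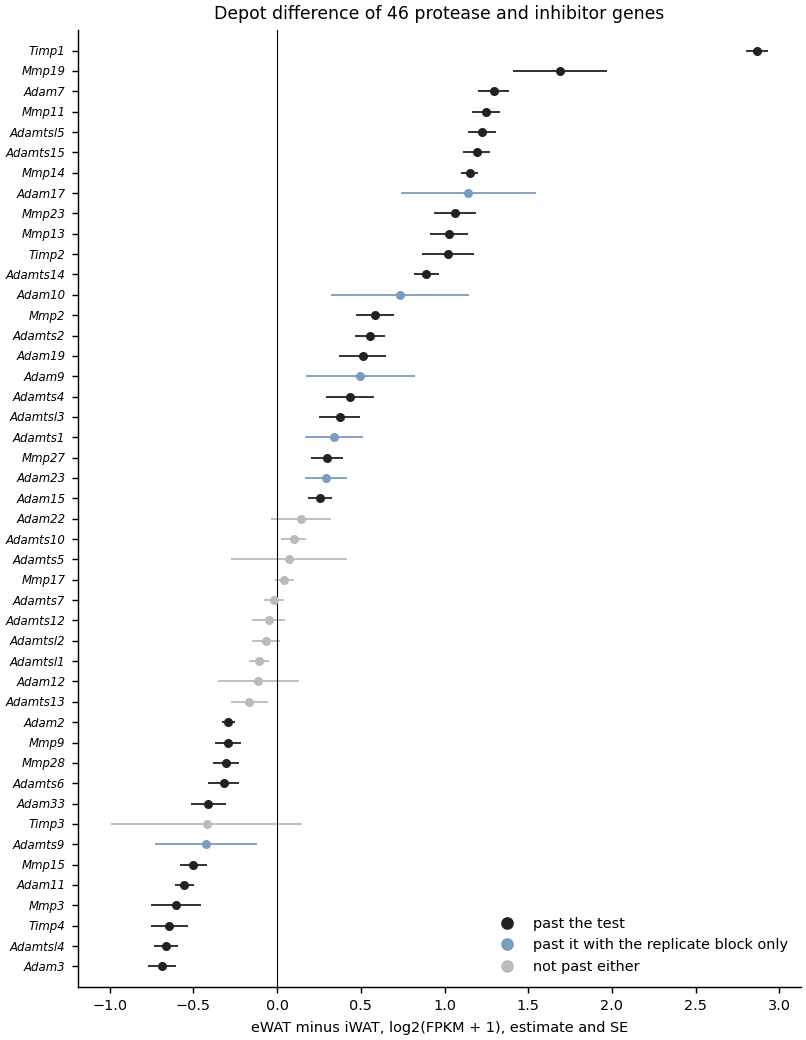
Log2 difference of eWAT minus iWAT (x axis, on log2(FPKM + 1)) with its SE for the 46 members, ordered by size. Black points passed the limma test, blue points passed with the replicate block and not without it and grey points passed neither; Timp1 at 2.86 lies farthest to the right.

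Cell type markers moved with the depot. Macrophage markers, all 10 of which were higher in eWAT, summed to 3947 to 5142 FPKM in eWAT and 965.5 to 1416 FPKM in iWAT. Mesothelial markers summed to 49.65 to 79.94 FPKM in eWAT and 1.368 to 4.613 FPKM in iWAT. The summed fibroblast and progenitor markers were 1902 to 2876 FPKM in eWAT and 1024 to 2111 FPKM in iWAT. Lymphocyte markers were lower in eWAT for 8 of 9, and skeletal muscle markers for 5 of 7. Their part in the depot differences was not tested, and in whole tissue fewer cells of a type and less RNA per cell cannot be told apart. Without the K107R vehicle groups of both depots, 26 members were called in place of 29. Adam15, Adamts4, Adamts6 and Mmp28 were lost and Adam17 was gained. The share of all genes called was not computed for that run.

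In iWAT, members of the Mmp, ADAMTS and Timp families were lower with rosiglitazone. Mmp14, Mmp3, Adamts1, Adamts2, Adamts7, Adamts10, Timp1 and Timp4 fell with the drug averaged over the genotypes, and Mmp28 rose. With Adam2, 2 of 46 members were higher and 8 lower, where 5.36% of all genes were called, 3.11% higher and 2.25% lower. Adam2 and Adam7 had reached 1 FPKM in 1 group alone, and without them 1 of 44 was higher and 8 lower. With the replicate block 3 were higher and 17 lower, against 16.2% of all genes. The median log2 change was -0.21 over the members and 0.02 over all genes. Rescaling called 1 member higher and 8 lower, but not the same ones: Adamts1, Adamts2 and Mmp3 were called again, Mmp14, Timp4, Timp1, Adamts7, Adamts10 and Mmp28 were not, and Adam3, Adam19, Adamts5, Adamts6 and Adamts12 came in. Rescaling and the block together called 24. The share of all genes called was not computed for the rescaled fits. Fitted on the iWAT libraries alone, Mmp14 and Timp4 passed, besides Adam2. The fitted changes of all 10 kept their direction in every alternative run.

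Mmp14 was at 32.39 and 31.78 FPKM in K107R iWAT with rosiglitazone, against 56.31 and 56.91 FPKM with vehicle. In WT iWAT Mmp14 was at 35.89 and 39.47 FPKM with rosiglitazone, against 60.6 and 62.65 FPKM with vehicle. All 4 rosiglitazone libraries lay below all 4 vehicle libraries. The average log2 change was -0.75 ± 0.07 (limma adjusted p = 0.000234). It was -0.80 in K107R and -0.70 in WT (limma adjusted p = 0.00181 and 0.00942). The K107R call and the WT call were lost after rescaling and with iWAT fitted alone. The WT call was lost on leaving out any of its 4 libraries (adjusted p 0.0562 to 0.095). With rescaling alone the average was not called (-0.77, limma adjusted p = 0.104), and with rescaling and the block it was (limma adjusted p = 0.0011). Mmp2, which Mmp14 activates, had 60.53 and 75.33 FPKM in K107R iWAT with rosiglitazone, against 105.1 and 126.9 FPKM with vehicle. In WT iWAT Mmp2 had 68.54 and 102.9 FPKM with rosiglitazone, against 104.4 and 131.9 FPKM with vehicle. The treated libraries all lay below the vehicle libraries, and the average change of -0.62 passed with the block and not without it (limma adjusted p = 0.0585, and 0.000259 with the replicate block).

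Mmp3 (chr9:7445822-7455975, GRCm38), which cuts proteoglycans and fibronectin and activates other Mmps, was at 9.832 and 7.412 FPKM in K107R iWAT with rosiglitazone, against 26.61 and 16.41 FPKM with vehicle. In WT iWAT it was at 11.26 and 8.859 FPKM with rosiglitazone, against 26.48 and 17.88 FPKM with vehicle. The treated and vehicle libraries did not overlap. The average log2 change was -1.13 ± 0.21 (limma adjusted p = 0.0108). It missed the threshold without iWAT WT rosiglitazone number 2 (adjusted p = 0.052) and held after rescaling (-1.15, limma adjusted p = 3.82e-05).

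The neighbouring hyalectanase genes Adamts1 (chr16:85793827-85803113, GRCm38) and Adamts5 (chr16:85856173-85901828, GRCm38) had the same order of groups. Adamts1 was at 7.974 and 4.788 FPKM in K107R iWAT with rosiglitazone, against 12.92 and 7.121 FPKM with vehicle, and at 5.603 and 4.157 FPKM in WT iWAT with rosiglitazone, against 21.08 and 13.17 FPKM with vehicle. The WT libraries separated and the K107R ones overlapped across numbers. The average change was -1.08 ± 0.25 (limma adjusted p = 0.0331), and the call was lost in 5 of 8 single omissions (adjusted p up to 0.127), those of number 1 of both vehicle groups, of K107R rosiglitazone number 2 and of either WT rosiglitazone library. Adamts5, the main aggrecan-cutting enzyme, was at 18.19 and 6.833 FPKM in K107R iWAT with rosiglitazone, against 48.6 and 16.34 FPKM with vehicle. In WT iWAT Adamts5 was at 14.65 and 6.208 FPKM with rosiglitazone, against 55.34 and 23.81 FPKM with vehicle. Number 2 libraries were the lower ones in all 4 groups. The change of -1.54 ± 0.49 was not called (limma adjusted p = 0.13), and it passed with the block (0.000939) and after rescaling (-1.57, limma adjusted p = 0.0088).

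Of the procollagen and other ADAMTS genes, Adamts2 was at 18.15 and 14.81 FPKM in K107R iWAT with rosiglitazone, against 27.65 and 22.42 FPKM with vehicle, and at 15.09 and 14.14 FPKM in WT iWAT with rosiglitazone, against 27.14 and 23.45 FPKM with vehicle. Treated and vehicle libraries did not overlap (log2 -0.66 ± 0.13, limma adjusted p = 0.0125). The call was lost without iWAT WT vehicle number 1, K107R rosiglitazone number 2 or WT rosiglitazone number 2 (adjusted p up to 0.0576). Adamts10, which binds fibrillin microfibrils, was at 10.87 and 12.21 FPKM in K107R iWAT with rosiglitazone, against 18.04 and 19.3 FPKM with vehicle. In WT iWAT Adamts10 was at 13.3 and 16.17 FPKM with rosiglitazone, against 20.89 and 21.2 FPKM with vehicle. Again no library overlapped, and the change was -0.57 ± 0.11 (limma adjusted p = 0.0111), lost without number 1 of either rosiglitazone group (adjusted p up to 0.0517) and after rescaling. Adamts7, which cuts cartilage oligomeric matrix protein (Comp), lay at 2.342 to 2.891 FPKM in the 4 iWAT rosiglitazone libraries and 3.296 to 4.055 FPKM in the 4 vehicle libraries (-0.36 ± 0.09, limma adjusted p = 0.0387), a call lost on each of 8 single omissions (adjusted p 0.061 to 0.151) and after rescaling (limma adjusted p = 0.263). Adamts12 was at 3.228 and 2.358 FPKM in K107R iWAT with rosiglitazone, against 5.386 and 3.855 FPKM with vehicle, and at 3.463 and 2.712 FPKM in WT iWAT with rosiglitazone, against 5.093 and 4.052 FPKM with vehicle. Its libraries did not overlap, and its change passed with the block (limma adjusted p = 0.0767, and 0.00138 with the replicate block).

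**Figure D3:**
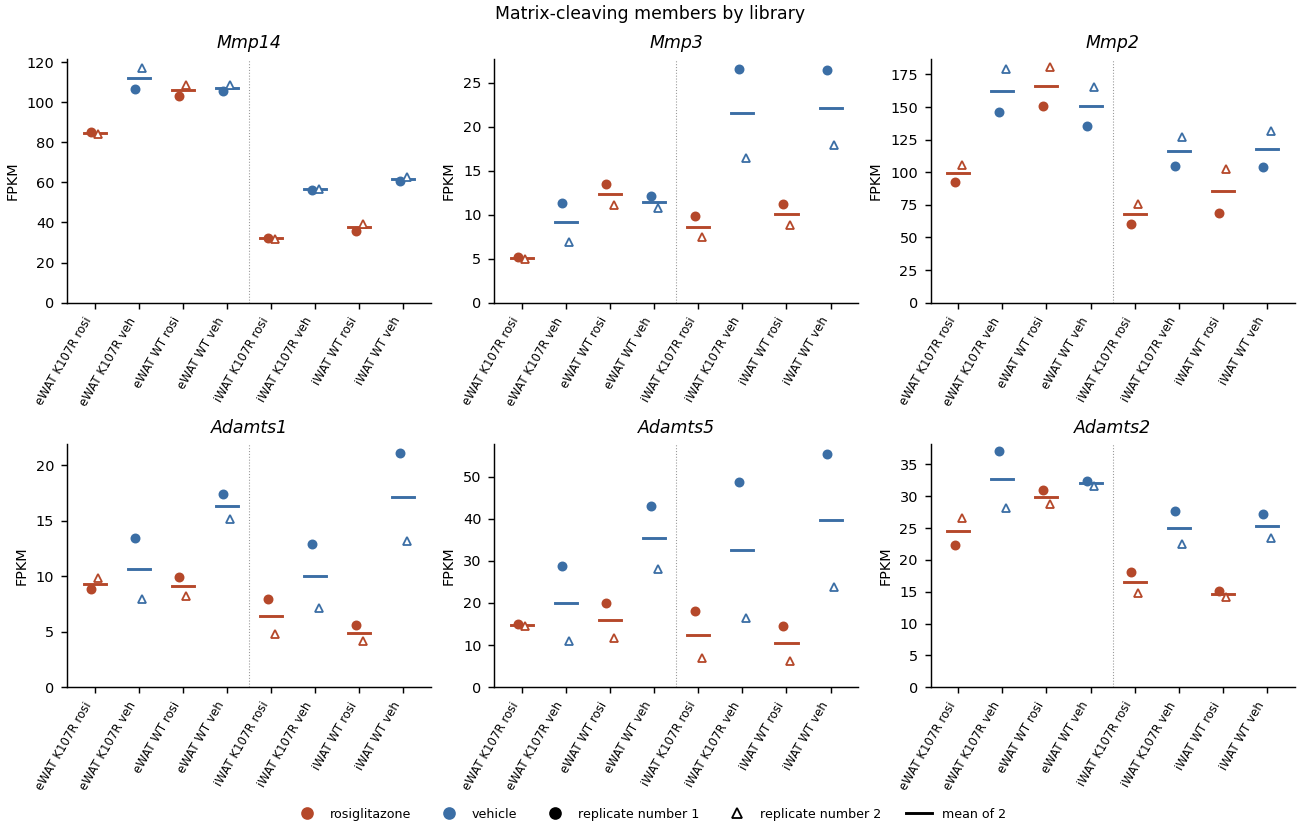
FPKM of Mmp14, Mmp3, Mmp2, Adamts1, Adamts5 and Adamts2 in each library (y axis, from 0), grouped by depot, genotype and treatment; circles are number 1 and open triangles number 2 libraries, red is rosiglitazone, blue is vehicle and bars are means of 2. In iWAT the 4 rosiglitazone libraries of Mmp14 (31.78 to 39.47 FPKM) lie below the 4 vehicle libraries (56.31 to 62.65 FPKM), and Adamts5 separates number 1 from number 2 libraries in every iWAT group.

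2 inhibitors, Timp4 and Timp1, fell beside these proteases. Timp4 (chr6:115241892-115252205, GRCm38) was at 32.1 and 32.2 FPKM in K107R iWAT with rosiglitazone, against 89.62 and 89.89 FPKM with vehicle. In WT iWAT Timp4 was at 44.53 and 63 FPKM with rosiglitazone, against 78.78 and 87.21 FPKM with vehicle. The average change was -1.05 ± 0.16 (limma adjusted p = 0.00328), without overlap, and in K107R alone it was -1.45 (limma adjusted p = 0.00469). The K107R call was lost after rescaling and with iWAT fitted alone. The K107R minus WT difference of the drug effect was -0.82 (95% interval -1.52 to -0.12) and did not pass (limma adjusted p = 0.793). After rescaling the average missed the threshold (limma adjusted p = 0.0615), and with rescaling and the block it passed (3.97e-05). Timp4 lies within the gene Syn2, and the strand setting of the authors' quantification is not given in the sources used here. Timp1 was at 6.226 and 6.45 FPKM in K107R iWAT with rosiglitazone, against 8.167 and 6.888 FPKM with vehicle. In WT iWAT it was at 4.376 and 3.518 FPKM with rosiglitazone, against 6.79 and 6.25 FPKM with vehicle. The average change of Timp1 was -0.41 ± 0.09 (limma adjusted p = 0.0329), lost in 6 of 8 single omissions (adjusted p up to 0.128; kept without iWAT K107R vehicle number 2 or WT rosiglitazone number 1) and after rescaling.

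Mmp28 (epilysin), an Mmp found in resting epithelia and macrophages, rose. It was at 30.25 and 29.4 FPKM in K107R iWAT with rosiglitazone, against 17.58 and 18.4 FPKM with vehicle, and at 20.41 and 24.95 FPKM in WT iWAT with rosiglitazone, against 17.4 and 18.88 FPKM with vehicle. All treated libraries lay above all vehicle libraries, by 0.50 ± 0.11 (limma adjusted p = 0.0306). The call was lost in 7 of 8 single omissions (adjusted p up to 0.126; kept without iWAT WT rosiglitazone number 1) and after rescaling (0.48, limma adjusted p = 0.458), and it passed with rescaling and the block (0.00337). Mmp28 overlaps 1700020L24Rik by 466 bases. Adam12, a marker of mesenchymal progenitors, differed by 0.49 on average and passed with the block and not without it (limma adjusted p = 0.697, and 0.0366 with the replicate block). It was at 33.53 and 15.24 FPKM in K107R iWAT with rosiglitazone, against 22.96 and 11.31 FPKM with vehicle, and at 23.51 and 12.89 FPKM in WT iWAT with rosiglitazone, against 15.8 and 8.871 FPKM with vehicle. The treated library was the higher one within each number, and the numbers differ by more than the treatments do.

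By genotype, rosiglitazone moved 2 higher and 3 lower of 46 members in K107R iWAT (4.21% of all genes called, 1.92% higher and 2.28% lower) and 1 higher and 1 lower in WT iWAT (1.68% called, 0.9% higher and 0.775% lower). With the block the counts were 3 higher and 10 lower in K107R iWAT and 1 higher and 10 lower in WT iWAT, against 12.4% and 6.98% of all genes. Without Adam2 and Adam7 and without the block, 1 was higher and 3 lower of 44 in K107R iWAT. In WT iWAT 0 were higher and 1 lower. The K107R iWAT calls of Mmp28 and Adamts10 were lost after rescaling and with iWAT fitted alone. Tested directly, the difference between genotypes in iWAT was called for 0 members in limma with and without the block; 4 had an unadjusted p under 0.05, while 0.966% of all genes were called. Rescaling called 1 member there, and rescaling with the block called 2. Fibroblast and progenitor markers, summed, were at 1024 to 1381 FPKM in iWAT rosiglitazone libraries, against 1391 to 2111 FPKM in vehicle libraries. Endothelial and mural markers summed to 201.7 to 386.5 FPKM with rosiglitazone and 246 to 647.3 FPKM with vehicle. For the iWAT average 0 of 9 fibroblast and progenitor markers were called (5 lower with the block, 4 of 9 at an unadjusted p under 0.05). Of the 8 endothelial and mural markers 1, Pdgfrb, was lower (4 with the block). Skeletal muscle markers in iWAT summed to 24.9 to 30.9 FPKM in K107R rosiglitazone and 87.16 to 90.55 FPKM in K107R vehicle. They summed to 11.97 to 15 FPKM in WT rosiglitazone and 25.68 to 26.9 FPKM in WT vehicle. Averaged over genotypes, 4 of 7 were lower with the drug (6 with the block). The part of these 3 lists in the lower protease levels was not tested.

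In eWAT, rosiglitazone lowered Mmp9 alone in WT mice, where 0.446% of all genes were called, 0.168% higher and 0.278% lower. With the block Timp1 also fell and Mmp11 rose (2.47% of all genes). In K107R eWAT, Timp4 and Adam33 fell and Mmp28 rose, and Adam7 was also lower and Adam2 higher, where 4.89% of all genes were called, 1.29% higher and 3.61% lower, and the block gave 4 higher and 7 lower (10.9%). The median log2 change in K107R eWAT was -0.04 over members and 0.17 over all genes. Rescaling shifted the all-gene median there to -0.002 and called 0 members higher and 4 lower, Adam3, Adam7, Mmp3 and Timp4. The average over genotypes had 2 higher and 3 lower (5.18% of all genes, 1.59% higher and 3.58% lower; 4 higher and 7 lower with the block, against 11.7%). Rescaling called 0 higher and 5 lower there, Adam7, Adam23, Adamts1, Mmp3 and Mmp9. Without Adam2 and Adam7, 1 was higher and 2 lower of 44 in K107R eWAT, and likewise for the average.

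Timp4 was at 13.95 and 20.73 FPKM in K107R eWAT with rosiglitazone, against 63.64 and 54.74 FPKM with vehicle. In WT eWAT Timp4 was at 35.4 and 44.63 FPKM with rosiglitazone, against 45.78 and 56.72 FPKM with vehicle. The K107R groups were far apart, and the highest WT rosiglitazone library lay just below the lowest WT vehicle library. The log2 change was -1.74 ± 0.22 in K107R (limma adjusted p = 0.000675) and held after rescaling (-1.95, limma adjusted p = 0.0213). The genotype difference of the drug effect was -1.39 (limma adjusted p = 0.0518, and 0.0087 with the replicate block). With rosiglitazone, Timp4 was lower in K107R than in WT eWAT by 1.18 on the log2 scale (change -1.18, limma adjusted p = 0.0421), a call lost on each of 4 single omissions (adjusted p 0.0551 to 0.418).

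Mmp28 was at 21.94 and 27.55 FPKM in K107R eWAT with rosiglitazone, against 13.13 and 14.88 FPKM with vehicle. In WT eWAT it was at 17.59 and 21.18 FPKM with rosiglitazone, against 13.21 and 13.91 FPKM with vehicle. As in iWAT, every treated library was above every vehicle library. The change was 0.77 ± 0.16 in K107R (limma adjusted p = 0.0178; lost without K107R vehicle number 1 or rosiglitazone number 2, adjusted p up to 0.185) and 0.63 on average (limma adjusted p = 0.00738). After rescaling the average was 0.51 (limma adjusted p = 0.538), and with rescaling and the block it passed (0.00278). Adam12 was at 28.69 and 23.58 FPKM in K107R eWAT with rosiglitazone, against 16.24 and 8.871 FPKM with vehicle, a change of 1.05 that passed with the block and not without it (limma adjusted p = 0.494, and 0.00595 with the replicate block). Within number 1 the change was 0.79 and within number 2 it was 1.32. Calls that need the block in K107R eWAT rest on a group, K107R rosiglitazone, whose 2 libraries follow the numbers less than the others do: its deviations correlated by 0.121 to 0.281 with those of the other 7 groups, against 0.501 to 0.791 among those 7.

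Mmp11 had 48.28 and 52.26 FPKM in WT eWAT with rosiglitazone, against 29.67 and 31.04 FPKM with vehicle. In WT iWAT Mmp11 had 10.74 and 14.19 FPKM with rosiglitazone, against 15.33 and 18.3 FPKM with vehicle. Treated libraries lay above vehicle in eWAT and below it in iWAT. The eWAT change was 0.71 ± 0.17 (limma adjusted p = 0.165, and 0.00778 with the replicate block), and the depot difference of the effect in WT was 1.12 (limma adjusted p = 0.242, and 0.0175 with the block). The span of Mmp11, introns included, overlaps that of Chchd10 by 3367 bases on the opposite strand, and whether reads are shared was not tested. The same depot test in WT called 0 of 46 members (6 with an unadjusted p under 0.05), where 0.0366% of all genes were called, and with the block Mmp11 and Mmp14 higher and Mmp9 lower (0.519%). Rescaling called 1.

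Mmp14 and Mmp2 in K107R eWAT passed with the block and not without it. Mmp14 was at 85.34 and 84.27 FPKM in K107R eWAT with rosiglitazone, against 106.4 and 117.2 FPKM with vehicle (log2 -0.39, limma adjusted p = 0.0624, and 0.0102 with the replicate block). Mmp2 was at 92.81 and 105.6 FPKM in K107R eWAT with rosiglitazone, against 145.9 and 179.3 FPKM with vehicle (log2 -0.70, limma adjusted p = 0.17, and 0.000993 with the replicate block). In WT eWAT, Mmp14 was at 103.2 and 108.6 FPKM with rosiglitazone, against 105.7 and 108.7 FPKM with vehicle, so the ranges overlapped. The genotype difference of the drug effect on Mmp2 was -0.84 (limma adjusted p = 0.546, and 0.0054 with the block).

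Mmp9, the gelatinase made largely by macrophages and neutrophils, differed between genotypes in both depots. Mmp9 (chr2:164940780-164955850, GRCm38) was at 1.387 and 1.148 FPKM in K107R vehicle eWAT, against 4.388 and 3.9 FPKM in WT vehicle eWAT. In iWAT it was at 1.807 and 1.27 FPKM in K107R vehicle, against 4.409 and 3.646 FPKM in WT vehicle. No library overlapped in either depot. The log2 difference was -1.18 ± 0.15 in eWAT (limma adjusted p = 0.000917) and -0.99 ± 0.15 in iWAT (limma adjusted p = 0.0219). The iWAT call was lost without WT vehicle number 1 or 2 or K107R vehicle number 2 (adjusted p up to 0.239) and with iWAT fitted alone (0.551), and held after rescaling (-0.96, limma adjusted p = 0.00553). Mmp9 was the only member called in vehicle iWAT (0.578% of all genes, 0.41% higher and 0.168% lower; 2.12% with the block) and 1 of 2 in vehicle eWAT (3.35% of all genes, 2.89% higher and 0.461% lower), the other being Adam7, which had reached 1 FPKM in 1 group alone. With the block 3 were higher and 2 lower in vehicle eWAT (8.3% of all genes).

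In WT eWAT Mmp9 fell with rosiglitazone, at 1.056 and 0.9821 FPKM with rosiglitazone, against 4.388 and 3.9 FPKM with vehicle (log2 -1.35 ± 0.15, limma adjusted p = 0.00775). That call was lost on each of 4 single omissions (adjusted p 0.0898 to 0.125), and with eWAT fitted alone (0.0615), while the log2 change lay between -1.42 and -1.28 in the omissions. In K107R eWAT Mmp9 was at 1.174 and 1.204 FPKM with rosiglitazone, against 1.387 and 1.148 FPKM with vehicle, and the ranges overlapped. The genotype difference of the drug effect in eWAT was 1.30 ± 0.22 (limma adjusted p = 0.00736). It lay between 1.223 and 1.375 in the 8 single omissions. The call was kept after rescaling (1.15, limma adjusted p = 0.00342) and with the block. This difference uses the K107R vehicle libraries, both of which carried the epididymal markers, and leaving out 1 library does not remove that. The part of those markers in Mmp9 was not tested. In WT iWAT Mmp9 was at 2.822 and 2.712 FPKM with rosiglitazone, against 4.409 and 3.646 FPKM with vehicle (log2 -0.41, limma adjusted p = 0.378, and 0.0468 with the block). K107R rosiglitazone iWAT stood at 1.72 and 1.189 FPKM, below WT rosiglitazone iWAT by a log2 difference of -0.63 (limma adjusted p = 0.0541, and 0.00374 with the block).

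Beside these values, neutrophil markers, of which 10 of 11 were in the table, summed to 65.66 to 71.21 FPKM in K107R rosiglitazone eWAT, 34.22 to 68.84 FPKM in K107R vehicle, 26.89 to 34.94 FPKM in WT rosiglitazone and 46.84 to 68.65 FPKM in WT vehicle. In vehicle iWAT that sum was 26.16 to 48.86 FPKM in K107R and 26.48 to 45.08 FPKM in WT. Macrophage markers summed to 3947 to 4210 FPKM in K107R vehicle eWAT and 4206 to 5109 FPKM in WT vehicle eWAT. In vehicle iWAT they summed to 1173 to 1368 FPKM in K107R and 1048 to 1416 FPKM in WT. Of the 10 macrophage markers, 0 were called between genotypes in vehicle eWAT (1 lower with the block), and Trem2 was higher in K107R vehicle iWAT. Lymphocyte markers in iWAT summed to 34.72 to 40.61 FPKM in K107R rosiglitazone, 105.8 to 132 FPKM in K107R vehicle, 284.9 to 311.4 FPKM in WT rosiglitazone and 169.9 to 207.5 FPKM in WT vehicle, and in eWAT to 9.745 to 10.86 FPKM in K107R rosiglitazone, 8.471 to 10.65 FPKM in K107R vehicle, 15.16 to 17.2 FPKM in WT rosiglitazone and 23.13 to 29.14 FPKM in WT vehicle. In vehicle eWAT 5 of the 9 were called lower in K107R than in WT, and in vehicle iWAT 0 of 9 (6 at an unadjusted p under 0.05, 3 lower with the block). Skeletal muscle markers were higher in K107R than in WT vehicle iWAT, 5 of 7. The part of these lists in the lower Mmp9 was not tested.

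**Figure D4:**
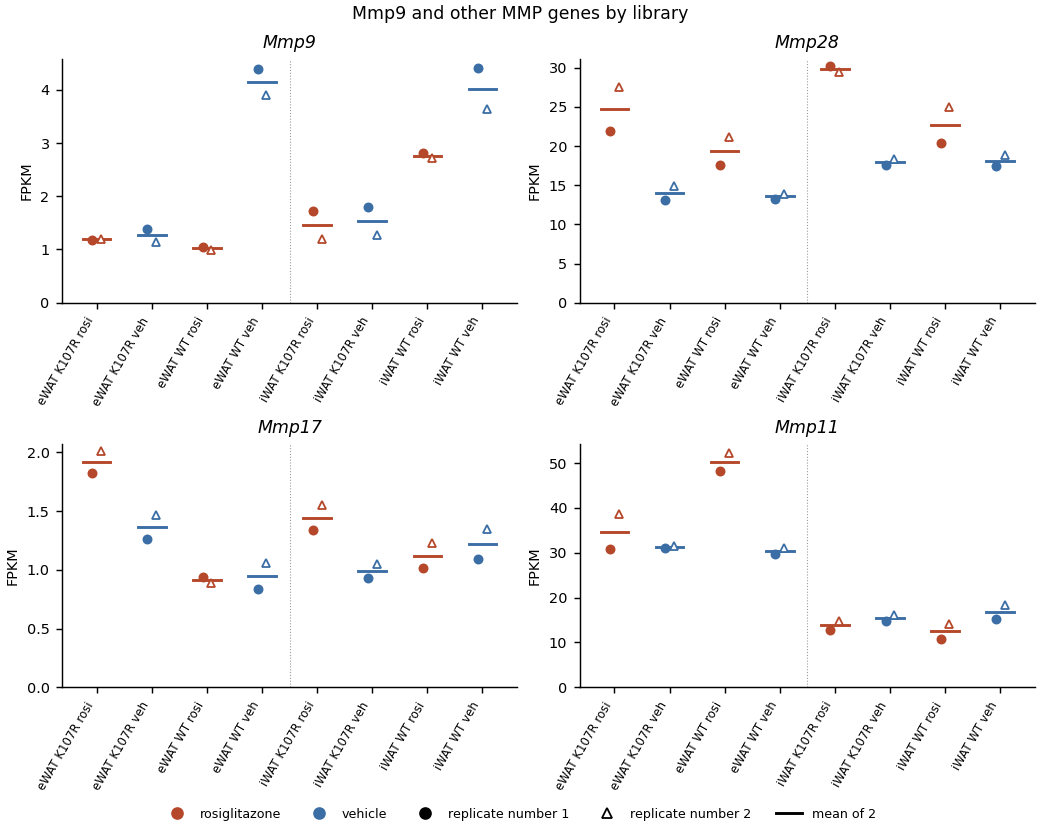
FPKM of Mmp9, Mmp28, Mmp17 and Mmp11 in each library (y axis, from 0), grouped by depot, genotype and treatment; circles are number 1 and open triangles number 2 libraries, red is rosiglitazone, blue is vehicle and bars are means of 2. In eWAT, Mmp9 is at 3.9 and 4.388 FPKM in WT vehicle and at 1.387 FPKM or less in the other 3 groups.

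With rosiglitazone, few members were called between K107R and WT. In eWAT, 2 of 46 were higher (Adam2 and Mmp17) and 1 lower (Timp4), where 0.907% of all genes were called, 0.556% higher and 0.351% lower; with the block 3 were higher and 5 lower (3.47%). Without Adam2 and Adam7, 1 was higher and 1 lower of 44. Mmp17, a membrane-anchored Mmp, was at 1.827 and 2.014 FPKM in K107R eWAT with rosiglitazone, against 0.9393 and 0.8886 FPKM in WT eWAT with rosiglitazone. The libraries were separated, by 0.61 ± 0.11 (limma adjusted p = 0.0394), but the call was lost on each of 4 single omissions (adjusted p 0.163 to 0.34) and after rescaling. Mmp3 was at 5.138 and 4.971 FPKM in K107R, against 13.52 and 11.12 FPKM in WT, a difference of -1.13 that was not called (limma adjusted p = 0.18) and passed with the block (0.00383) and after rescaling (-1.15, limma adjusted p = 0.00091). Timp1 was at 58.48 and 55.38 FPKM in K107R, against 37.57 and 39.03 FPKM in WT (0.56, limma adjusted p = 0.121, and 0.0199 with the block).

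In iWAT with rosiglitazone 2 members were higher in K107R (Adam2 and Timp1) and 1 lower (Adam11), where 4.13% of all genes were called, 0.995% higher and 3.14% lower; the block gave 3 higher and 4 lower (9.36%). Without Adam2 and Adam7, 1 was higher and 1 lower of 44. Timp1 was at 6.226 and 6.45 FPKM in K107R, against 4.376 and 3.518 FPKM in WT (0.57 ± 0.13, limma adjusted p = 0.0394), a call lost on each of 4 single omissions (adjusted p 0.0529 to 0.315) and after rescaling. Adam11, known chiefly from neurons and without protease activity, was at 1.156 and 0.8699 FPKM in K107R, against 2.78 and 2.426 FPKM in WT. It was separated by -0.84 ± 0.11 (limma adjusted p = 0.00138), and this was kept on each of 4 single omissions and after rescaling (-0.81, limma adjusted p = 0.016), but not with iWAT fitted alone (adjusted p = 0.0772).

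Adam33, a fibroblast and smooth-muscle ADAM linked to airway remodelling, was crossed between genotypes in eWAT. It was at 3.756 and 4.281 FPKM in K107R eWAT with rosiglitazone, against 9.056 and 9.981 FPKM with vehicle. In WT eWAT it was at 6.03 and 7.874 FPKM with rosiglitazone, against 5.032 and 5.681 FPKM with vehicle. Treated libraries were lower in K107R and higher in WT. The change in K107R was -1.07 ± 0.21 (limma adjusted p = 0.0118), lost on each of 4 single omissions (adjusted p 0.0532 to 0.114), and the genotype difference of the drug effect was -1.38 ± 0.29 (limma adjusted p = 0.034), lost on each of 8 (adjusted p 0.0502 to 0.18) and after rescaling alone. With rescaling and the block the difference passed (-1.56, limma adjusted p = 0.00341). The high value was that of the K107R vehicle libraries, in which the epididymal markers summed to 3140 to 3410 FPKM and epithelial markers to 77.37 to 94.84 FPKM, against at most 10.14 FPKM elsewhere. Their part in Adam33 was not tested. In that eWAT test of the genotype difference 1 member was higher and 2 lower (2.53% of all genes, 0.234% higher and 2.3% lower; with the block 2 higher and 4 lower, 4.2%), and without the 2 members that reached 1 FPKM in 1 group alone it was 1 higher and 1 lower of 44.

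Adam7 and Adam2 entered through 1 group alone, so their differences describe the filter as well as the tissue. Calls that name them elsewhere carry that limit, and their values are given here without a test. Adam7, a protein of the epididymal duct (chr14:68497336-68533741, GRCm38), was at 34.52 and 20.19 FPKM in K107R vehicle eWAT. It was at 0.2388 and 0.3929 FPKM in K107R rosiglitazone eWAT and at 0.005971 FPKM or less, or listed at 0, in the other 12 libraries. It moved with the epididymal markers, 6 of which were in the table and all of which reached 1 FPKM in both K107R vehicle libraries, while none did in both libraries of another group. Adam2, a sperm-surface ADAM (fertilin beta), was at 1.261 and 1.232 FPKM in K107R rosiglitazone iWAT and 0.1616 and 0.09436 FPKM in K107R vehicle iWAT. It was at 0.7789 and 0.6273 FPKM in WT rosiglitazone iWAT and 0.05323 and 0.05191 FPKM in WT vehicle iWAT. In eWAT it was at 0.5268 and 0.5823 FPKM in K107R rosiglitazone, 0.07384 and 0.1953 FPKM in K107R vehicle, 0.1281 and 0.1055 FPKM in WT rosiglitazone and 0.03068 and 0.0295 FPKM in WT vehicle. In each of the 4 pairs of groups both rosiglitazone libraries were above both vehicle libraries. The span of Adam2, introns included, overlaps the pseudogene Gm10233 on the opposite strand, and whether its low reads are shared was not tested.

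**Figure D5:**
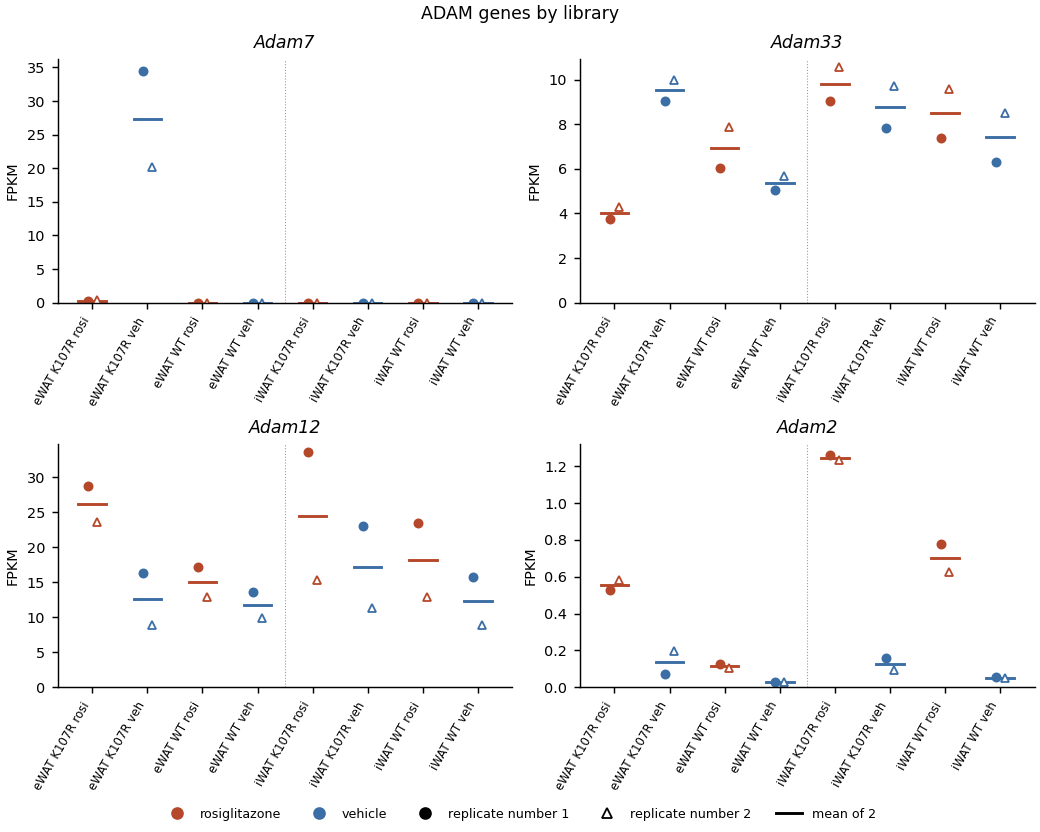
FPKM of Adam7, Adam33, Adam12 and Adam2 in each library (y axis, from 0), grouped by depot, genotype and treatment; circles are number 1 and open triangles number 2 libraries, red is rosiglitazone, blue is vehicle and bars are means of 2. Adam7 is above 1 FPKM in the 2 K107R vehicle eWAT libraries alone, and Adam2 is highest in K107R rosiglitazone iWAT at 1.261 and 1.232 FPKM.

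Other genes of the system were read from 3 lists of activators and carriers (15 of 16 tested), other inhibitors and clearance receptors (7 of 12 tested) and substrates (22 of 26 tested). In iWAT with rosiglitazone, averaged over genotypes, where 5.36% of all genes were called and 2.25% were lower, 2 activators or carriers fell, the ADAM17 partner Rhbdf2 (log2 -0.50) and tissue plasminogen activator Plat (-0.37). The clearance receptor Lrp1 (-0.57) was the only one of 7 inhibitors and clearance genes that fell. Of the substrates, Thbs1 (thrombospondin-1, -1.70), Fbn1 (fibrillin-1, -0.98) and Fn1 (fibronectin, -0.38) fell, none rose, and 9 fell with the block (16.2% of all genes called). In eWAT, where 5.18% of all genes were called, 1.59% higher and 3.58% lower, the substrates Comp (-1.72), Thbs1 (-0.81), Fbn1 (-0.54) and Fn1 (-0.46) fell, and the ADAM10 carrier Tspan33 rose (0.47).

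Between depots, where 19.9% of all genes were higher in eWAT and 12.5% lower, 6 activators or carriers were higher in eWAT and 2 lower, led by urokinase Plau (2.69) and its receptor Plaur (1.39). Of the inhibitors and clearance genes, Sfrp1 (1.56), Spock2 (1.13) and Lrp1 (1.11) were higher in eWAT. Of the substrates 10 were higher, among them Sdc1 (2.31), Lum (1.68), Vcan (1.22) and Dcn (1.10), and Vwf (-0.40) was lower. With rosiglitazone in iWAT, where 0.995% of all genes were higher in K107R and 3.14% lower, K107R had higher Papln (papilin, an ADAMTS-like proteoglycan, 1.58), Thbs1 (1.16) and Fn1 (0.56) and lower Tspan33 (-0.58) than WT. With vehicle, K107R and WT differed in 0 of 15 activators and carriers and 0 of 22 substrates in limma in either depot, with an unadjusted p under 0.05 for 1 substrate in eWAT and 2 in iWAT. The block called the substrates Comp and Tnf in eWAT.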

How the data were processed

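PolyA RNA of eWAT and iWAT was measured in 16 libraries, 2 per combination of depot, genotype and treatment, from 4 ug of total RNA each with a stranded kit and 75-nt single-end reads, per the labels' protocols. The FPKM values are those the authors deposited. The submitters' processing notes name CASAVA 1.8.2, TopHat2 2.0.12 and Cufflinks 2.2.1 and the mm10 build; the annotation, the strand setting and the scaling between libraries are not given in the sources used here. FPKM carries no read counts, so no counting interval or floor was computed, and a value of exactly 0 is given as listed at 0. Near-identical copies and overlapping genes can share reads.

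Tests ran on the 13669 of 14023 genes that reached 1 FPKM in 2 or more libraries. With limma 3.58.1 in R 4.3.3, 1 mean per group was fitted to log2(FPKM + 1) over the 16 libraries with a trend of variance on mean level, and two-sided p-values were adjusted by Benjamini-Hochberg over all genes tested within each of 14 contrasts. The pseudocount of 1 understates changes of low genes. Errors of changes are SE. The test was checked on simulated data. Values in every library, or their range, are given for most members past the test and for the highest member of each class; the others are counted. The members, the classes and the lists were chosen with earlier results of these data known.

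As alternatives, the pseudocount was set to 0.1, the filter was dropped and libraries were rescaled by median ratios; further ones were the replicate block, a depot's libraries alone, each library left out in turn, and the depot contrast without the K107R vehicle groups. Rescaling together with the block was added after seeing the data. The labels give the replicate numbers without their meaning. In all 28 pairs of groups, same-numbered libraries had deviations from their group means that correlated by over 0.1 (0.121 to 0.791, median 0.573; the 7 pairs with eWAT K107R rosiglitazone were the lowest, at 0.281 or less), and the numbers were treated as pairing the libraries. Coordinates came from GENCODE on GRCm38, the assembly of mm10, and promoters from RefSeq. A division of the ADAM class by catalytic site was not made, since protein sequences were not used here. The results of 1 gene of the lists are not reported here.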

Additional observations from a re-analysis of the deposited data

Results flagged for a closer look

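By a test of the difference itself, the rosiglitazone effect in eWAT differed between K107R and WT for Mmp9 and Adam33. The test was limma with adjustment over all genes, and it called 2.53% of all genes. It uses the K107R vehicle libraries, both of which carried the epididymal markers. The Adam33 call was lost after rescaling alone and with eWAT fitted alone. For Mmp9 a change was called in WT, though not with eWAT fitted alone, and none was called in K107R. The difference of the log2 changes for Mmp9 was 1.30 (1.299). For Adam33 it was -1.38 (-1.383), with treated libraries lower in K107R and higher in WT, and the call was lost on each of 8 single omissions. Adam7 had a difference of -4.38 (-4.382), given as a description, since the gene entered through the K107R vehicle libraries.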

How the results depend on the processing

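None of the 134 member changes that passed with or without the block turned its direction under any alternative run. Among all 46 members, rescaling changed the numbers of positive and negative changes in K107R eWAT to 14 and 32, against 22 and 24 before, and between depots to 24 and 22, against 27 and 19. The eWAT against iWAT count of 29 stayed within 1.5 times that value under every one, from 24 to 31 with 1 library left out. The pseudocount of 0.1 and no filter moved no count of called members by more than 1.5 times. With the replicate block the counts of members called were 3 for rosiglitazone in WT eWAT (1 without the block), 11 in K107R eWAT (5), 11 for the eWAT average (5), 11 in WT iWAT (2), 13 in K107R iWAT (5) and 20 for the iWAT average (10). For K107R against WT the block gave 5 in vehicle eWAT (2), 8 in rosiglitazone eWAT (3) and 7 in rosiglitazone iWAT (3). It gave 6 for the eWAT genotype difference of the drug effect (3) and 3 for the depot difference in WT (0). All 69 calls of a member without the block, over 14 contrasts, were also made with it. Rescaling alone called 2 in WT eWAT, 5 in WT iWAT, 1 in K107R against WT rosiglitazone eWAT, 2 in vehicle iWAT, 1 for the iWAT genotype difference and 1 for the depot difference. In the same order as the block counts, rescaling with the block, added after seeing the data, called 7, 17, 15, 17, 17 and 24 for rosiglitazone. It called 9 in vehicle eWAT, 7 in rosiglitazone eWAT, 10 in rosiglitazone iWAT and 3 in vehicle iWAT for K107R against WT. It called 10 for the eWAT and 2 for the iWAT genotype difference, and 3 for the depot difference. Of 134 named results, it lost 1 call, Adam15 between depots. Rescaling moved the all-gene median by more than 0.1 in K107R eWAT (0.17 to -0.002), in K107R against WT vehicle eWAT (-0.13 to 0.01), in the eWAT genotype difference (0.15 to -0.02) and between depots (0.10 to -0.01). Calls for a depot fitted alone were 0 in WT eWAT, 0 in WT iWAT, 1 in K107R iWAT and 3 for the iWAT average, and 0 in K107R against WT for rosiglitazone eWAT, vehicle iWAT and rosiglitazone iWAT; these fits have fewer libraries. Leaving out 1 library left 0 calls in WT eWAT, 3 to 4 in K107R eWAT, 1 in WT iWAT, 3 to 4 in K107R iWAT and 5 to 8 for the iWAT average. It left 0 in K107R against WT rosiglitazone eWAT, 0 to 1 in vehicle iWAT and 1 to 2 in rosiglitazone iWAT. For the other shifts the cause was not tested. The share of all genes called was computed for the fit as described and for that with the block. The other runs have counts of members alone, which cannot be set against all genes. With 2 libraries per group and no read counts, small changes and members near 1 FPKM could not be resolved.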
